A study of Mus musculus with 8 samples.

Results

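The proteasome genes were examined in quadriceps femoris muscle of mice that lose Grpel1, a co-chaperone of the mitochondrial protein import motor, in skeletal muscle. Genes were taken by symbol: every gene named Psma to Psmg followed by a digit, pseudogene copies excepted, which gave 48 of the 14012 genes in the table. They comprise 7 alpha ring subunits, 7 constitutive beta ring subunits, the 3 inducible beta subunits of the immunoproteasome (Psmb8, Psmb9 and Psmb10), 6 ATPases, 14 Psmd genes, 5 activators and 5 assembly factors or inhibitors. The last, Psmc3ip, matches by symbol but encodes a meiotic recombination factor and is counted apart. It did not pass the test described below (log2 fold change 0.37, adjusted p = 0.11). Positions are on GRCm38.

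Polyadenylated RNA was sequenced from 4 male mice labelled KO (Grpel1 smk -/-), here Grpel1skm-/- or knockout, and from 4 labelled WT (Grpel1 flox/flox), here control, each library from its own animal. Both groups carry the floxed Grpel1 alleles. The knockout mice carry a tamoxifen-inducible Cre recombinase driven by the human skeletal muscle alpha-actin promoter, and were given tamoxifen from 5 weeks of age. That promoter is active in myofibres, so that the blood vessel, immune, fat and connective tissue cells of the muscle keep the gene. In describing body weight the study calls floxed littermates untreated. Its floxed controls there were mice with Cre but no tamoxifen, and mice with tamoxifen but no Cre. Which of these the sequenced controls were is not stated in the sources used here, so genotype, Cre and tamoxifen cannot be told apart.

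Libraries held 16017565 to 20361144 gene counts. The Grpel1 count itself did not separate the groups (log2 fold change -0.07 ± 0.078, SE, edgeR adjusted p = 0.49), and the exons that were deleted are not given in the sources used here, so it does not check the labels and the groups are named as labelled. The scaling factors of the libraries differed by group, 0.7474 to 0.8436 in control and 1.1898 to 1.3295 in knockout. Of the 12 defining myofibre genes 8 fell and 2 rose (66.7% and 16.7%, where 21.1% and 23.6% of all genes did). Their summed level was 212310 to 272312 CPM (counts scaled to a common library size with TMM factors) in control and 77283 to 107411 in knockout. Of the macrophage markers 3 of 14 passed as higher (21.4%, where 23.6% of all genes did), with summed levels of 93.5 to 244 CPM in control and 209 to 391 CPM in knockout. Their median log2 fold change was 0.92, against 0.07 over all genes, and 13 of the 14 were positive. Endothelial markers fell in 7 of 8 (87.5%) and fibroblast markers in 4 of 7 (57.1%), where 21.1% of all genes fell. These falls depend on the scaling. With libraries scaled by their totals alone, the 8 endothelial markers had log2 fold changes of -0.16 to 0.15 and none passed. The 4 fibroblast markers then had -1.24 (Col1a1) to 0.15 (Dcn), and only Col1a1 passed. The part of these shifts in the results was not tested, and in whole muscle fewer cells of a type and less RNA per cell cannot be told apart.

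The proteasome degrades proteins marked with ubiquitin. Its core particle is a barrel of alpha rings, which gate the entry, around beta rings, in which Psmb5, Psmb6 and Psmb7 carry the active sites. The regulatory particle caps the barrel: a base with a ring of ATPases unfolds the substrate and a lid removes ubiquitin. Other caps, the Psme activators, open the gate without ATP, and in immune cells or under interferon Psmb8, Psmb9 and Psmb10 replace the 3 constitutive active subunits. In skeletal muscle the proteasome breaks down contractile proteins and is well known for its part in atrophy.

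The transcripts moved unevenly. Of all genes 44.7% passed an adjusted p of 0.01 in edgeR's quasi-likelihood test in either direction. Of the 48 genes 23 rose in the knockout (47.9%, where 23.6% of all genes rose), 5 fell (10.4%, where 21.1% of all genes fell) and 20 did not pass. The median log2 fold change was 0.33 over the proteasome genes and 0.07 over all genes. In 26 genes every knockout library lay above every control library (54.2%, against 29% of all genes), in 6 every one lay below (12.5%, against 24.4%), and in 16 the groups overlapped. Most changes were modest. Only Psmg4, which rose, and Psme4, which fell, passed the test with a change of at least 2-fold. Of all 14012 genes, 1378 rose and 1078 fell by at least as much and passed.

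The direction of the small changes depends on how libraries are scaled. With library totals alone, 43 of the 48 genes were higher (60.6% of all genes were) and 1, Psme4, was lower (6.23% of all genes were), and the median over all genes moved to 0.73. Relative to the median of all genes the proteasome genes stood 0.27 higher at their median under either scaling, and 37 of the 48 lay above it under both. Rescaling moves all genes by nearly the same amount, so this agreement was fixed in advance and is no separate support. Psmb7, Psmd1, Psmd6 and Psme1, called lower with TMM scaling, had positive log2 fold changes with library totals alone (0.37, 0.31, 0.30 and 0.26) and lay 0.36, 0.42, 0.43 and 0.47 below the median of all genes on that scale.

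**Figure D1:**
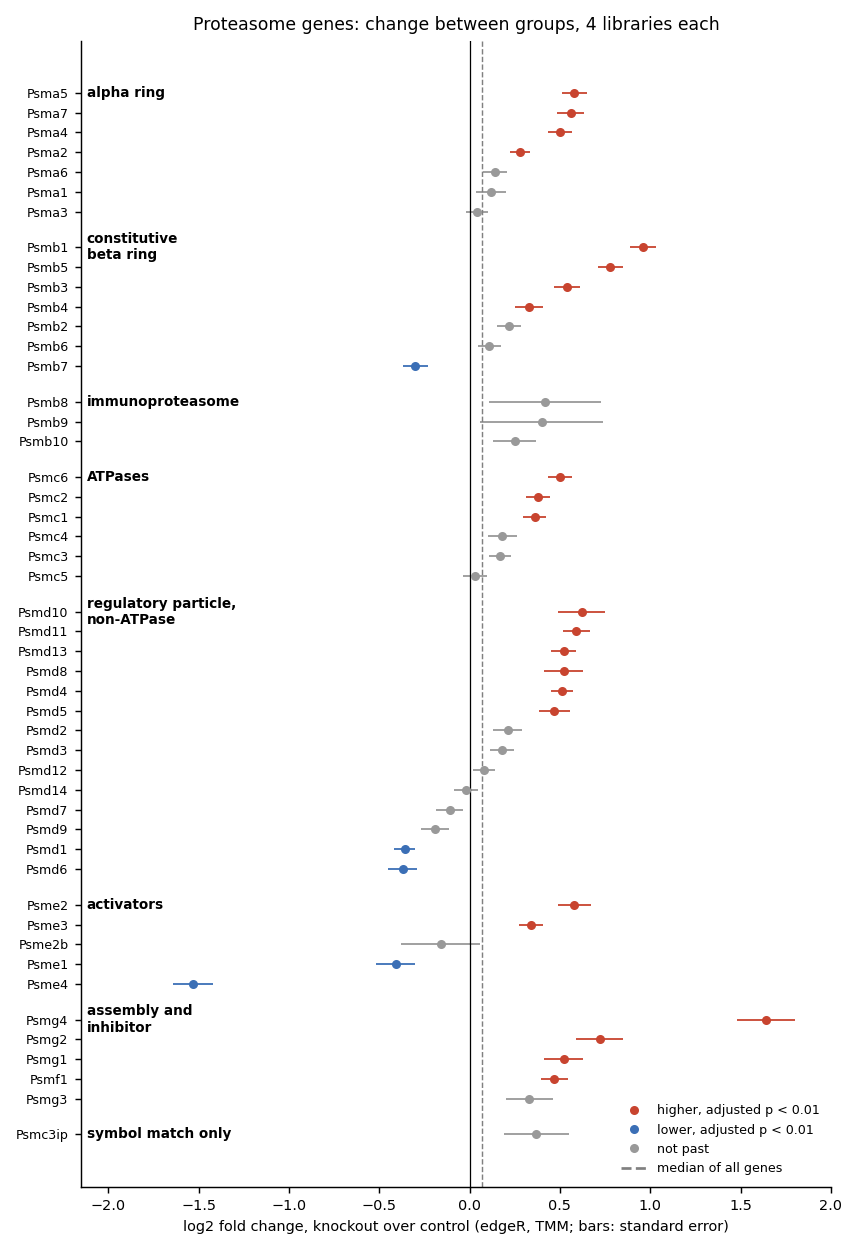
Log2 fold change of each proteasome gene, knockout over control, with its standard error (4 libraries a group, TMM scaling), grouped by role. Red points rose, blue points fell and grey points did not pass an adjusted p of 0.01, and the dashed line is the median of all genes, 0.07. Psmg4 (1.64) and Psme4 (-1.53) lie farthest out, and the other blue points, Psmb7, Psmd1, Psmd6 and Psme1, lie right of 0 when libraries are scaled by their totals alone.

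Summed over the 31 subunits of core and regulatory particle, proteasome transcripts made up 0.324% ± 0.0132 of all counts in control and 0.604% ± 0.0235 in knockout (SD, n = 4). On the TMM scale the same sum was 4085 ± 144 and 4791 ± 133 CPM (SD, n = 4). The sums did not overlap between groups on either scale, and the difference was smaller on the second.

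Among the alpha ring genes 4 of 7 rose (57.1%, where 23.6% of all genes rose): Psma5, Psma7, Psma4 and Psma2. None fell (21.1% of all genes did), and the median log2 fold change was 0.28. Psma5 moved most. Its level was 45.4, 42.7, 44.9 and 43.7 CPM in the control libraries and 64.3, 59.2, 69.7 and 70.1 CPM in the knockout libraries, a log2 fold change of 0.58 ± 0.071 (SE, adjusted p = 7.2e-05). Psma3 moved least, at 141, 140, 146 and 133 CPM in control and 150, 140, 146 and 139 CPM in knockout (log2 fold change 0.04 ± 0.061, adjusted p = 0.62). The Psma5 groups were well apart, whereas those of Psma3 overlapped, and the fitted sign of Psma3 changed to -0.01 with RLE size factors. Psma7, Psma4 and Psma2 had log2 fold changes of 0.56, 0.50 and 0.28. Psma6 (0.14) and Psma1 (0.12) did not pass the test.

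The constitutive beta ring held the widest spread of any ring. Here 4 of 7 genes rose (57.1%, where 23.6% of all genes rose): Psmb1, Psmb5, Psmb3 and Psmb4. Psmb7 alone fell (14.3% of the ring, where 21.1% of all genes fell). Psmb2 (log2 fold change 0.22, adjusted p = 0.015) and Psmb6 did not pass. Psmb1, a structural beta subunit without an active site (chr17:15475721-15498276), read 92.5, 93.0, 98.8 and 85.1 CPM in control and 178, 165, 193 and 185 CPM in knockout. It was thus 1.95-fold higher (log2 fold change 0.96 ± 0.074, SE, adjusted p = 3.4e-06), with no overlap. Psmb3 and Psmb4, also structural, had log2 fold changes of 0.54 and 0.33. Of these the Psmb4 call was lost with RLE size factors (adjusted p = 0.011) and without any of 5 single libraries (control replicates 2 and 3, knockout replicates 1, 2 and 3), with an adjusted p of up to 0.017.

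The 3 subunits that cut substrates did not move together. Psmb5, which carries the chymotrypsin-like activity (chr14:54614120-54617995), read 81.3, 78.8, 81.9 and 79.2 CPM in control and 143, 124, 145 and 140 CPM in knockout, 1.72-fold higher (log2 fold change 0.78 ± 0.067, SE, adjusted p = 6.6e-06). Psmb6, which carries the caspase-like activity, read 122, 120, 122 and 112 CPM in control and 134, 123, 134 and 123 CPM in knockout (log2 fold change 0.11 ± 0.064, SE, adjusted p = 0.16). Its knockout libraries all lay above the control libraries, by a margin too small to pass the test. Psmb7, which carries the trypsin-like activity (chr2:38588046-38643906), read 252, 230, 254 and 231 CPM in control and 198, 200, 203 and 185 CPM in knockout, with no overlap. Its log2 fold change was -0.30 ± 0.068 (SE, adjusted p = 0.0035) with TMM scaling and 0.37 with library totals alone, and the call was lost without control replicate 1 or control replicate 3 (adjusted p up to 0.012). In the GENCODE annotation 405 exonic bases of Psmb7 (34.9%) are shared with Nek6 on the opposite strand, whose mean was 211 counts a library. The exons of that annotation need not be those that were counted. Whether strand was used in counting is not given in the sources used here.

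RefSeq promoter windows, 250 bases before to 50 after the start site on GRCm38.p6, were at hand for 41 of the 48 genes. The stretches around an antioxidant element, the kind of site that NRF1 (Nfe2l1) and NRF2 (Nfe2l2) bind with small Maf proteins, are shown for the active subunits Psmb5 and Psmb6, since one rose and the other did not pass the test. The stretch for Psmb8 holds a gamma interferon activation site (GAS), a kind of site found at genes that interferon induces. Capitals mark the letters matched.
Psmb5, chr14:54618014-54618062, minus strand, match from 47 bases before the start: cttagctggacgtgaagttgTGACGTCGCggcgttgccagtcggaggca
Psmb6, chr11:70525328-70525356, plus strand, match from 9 bases before the start: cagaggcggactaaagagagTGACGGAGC
Psmb8, chr17:34198078-34198126, plus strand, match from 97 bases before the start: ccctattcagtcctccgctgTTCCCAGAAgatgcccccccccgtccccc

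Searched on both strands, the antioxidant element TGACNNNGC was found for 6 of the 41 proteasome genes with a window (14.6%). Of all 27025 genes with a window, which are not limited to the 14012 genes tested here, 14.0% held it. The genes were Psmb5, Psmb6, Psmc6, Psmd12, Psmd9 and Psme4, of which Psmb5 and Psmc6 rose and Psme4 fell. The GC box GGGCGG was found for 56.1% of these proteasome genes and 38.2% of all genes with a window, and the CCAAT box for 34.1% and 41.1%. The interferon-stimulated response element GAAANNGAA was found for 17.1% and 9.76%, the GAS letters TTCNNNGAA for 7.32% and 9.55%, and the amino acid response element TGATGNAA for 2.44% and 4.51%. These are matches of letters, with no test.

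Levels of the 14 core subunits were compared per kilobase of exon. Psmb7 was the highest and Psma5 the lowest in all 8 libraries, and the ratio between them was 6.64 to 7.10 in control and 3.31 to 4.24 in knockout. A ratio within a library does not depend on its scaling. Psmb1 moved from rank 14 to rank 3 among the 48 genes (89.2 to 174 CPM per kilobase), and Psmb5 from rank 13 to rank 6 (92.2 to 158). The standard deviation of the log2 levels over the 14 subunits, 0.66 to 0.69 in control and 0.60 to 0.65 in knockout, changed little.

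**Figure D2:**
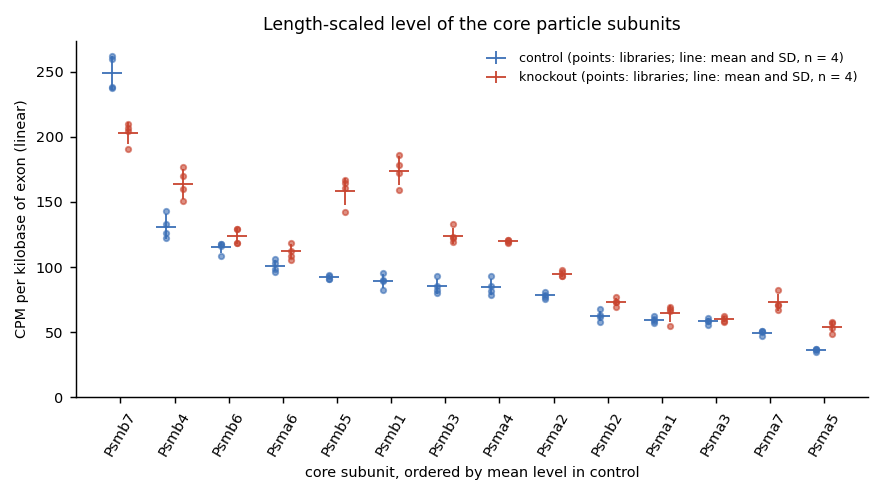
Length-scaled level of the 14 core particle subunits in CPM per kilobase of exon, ordered by the control mean. Points are libraries and crosses are mean and SD (n = 4), control in blue and knockout in red. Psmb1 (89.2 to 174) and Psmb5 (92.2 to 158) rise past their neighbours, and Psmb7 falls from 249 to 203 on this TMM scale while being higher with library totals alone.

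None of the 3 inducible subunits passed edgeR's test, none had an unadjusted p under 0.05, and DESeq2 called none of them. Psmb8 and Psmb9 lie beside the Tap genes in the MHC region (chr17:34198195-34201454 and chr17:34182099-34187330), and Psmb10 lies on another chromosome (chr8:105935728-105938392). Psmb8 read 7.92, 6.09, 3.72 and 9.26 CPM in control and 12.6, 10.3, 5.28 and 8.03 CPM in knockout (log2 fold change 0.42 ± 0.31, SE, adjusted p = 0.26). Psmb9 read 4.04, 2.36, 1.43 and 3.78 CPM in control and 4.63, 4.53, 2.02 and 4.09 CPM in knockout (log2 fold change 0.40 ± 0.34, SE, adjusted p = 0.34). Psmb10 read 10.7, 9.56, 8.37 and 10.4 CPM in control and 12.8, 10.4, 10.6 and 12.6 CPM in knockout (log2 fold change 0.25 ± 0.12, SE, adjusted p = 0.087). The groups overlapped for all 3 genes. For Psmb8 and Psmb9 the spread among animals of 1 group was large: the coefficient of variation was 35.6% and 42.3% in control and 34.4% and 32% in knockout. With library totals alone Psmb10 passed the test and the other two did not. In the GENCODE annotation, whose exons need not be those that were counted, Psmb9 shares 212 exonic bases (15.7%) with Tap1 on the opposite strand.

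**Figure D3:**
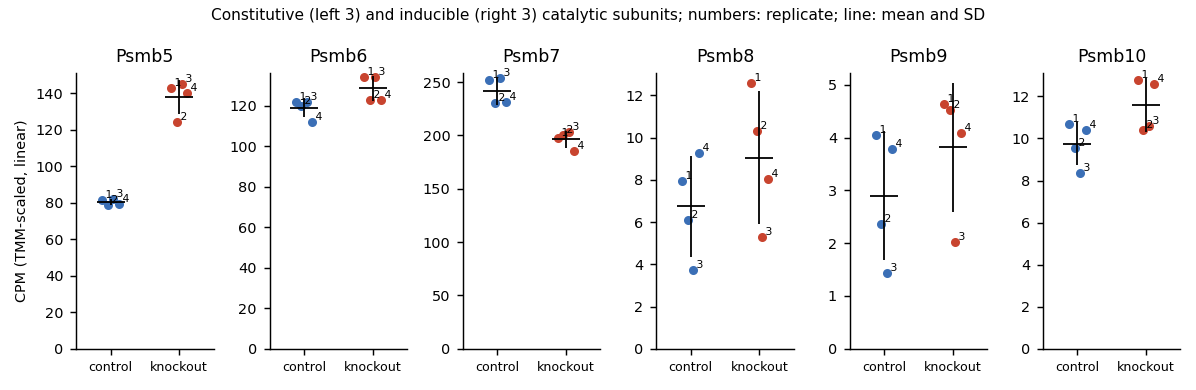
Level in CPM (TMM scale, linear axes from 0) of the constitutive active subunits Psmb5, Psmb6 and Psmb7 and of the inducible subunits Psmb8, Psmb9 and Psmb10 that replace them in that order. Points are libraries numbered by replicate and lines are mean and SD (n = 4). Psmb5 separates the groups widely, Psmb7 is lower on this scale and higher with library totals alone, and in Psmb8 and Psmb9 replicate 3 is lowest in each group.

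Each inducible subunit was set against the subunit it replaces, as counts per 100 counts of the partner. Psmb8 stood at 9.74, 7.72, 4.55 and 11.7 per 100 of Psmb5 in control and at 8.80, 8.25, 3.65 and 5.74 in knockout. Psmb9 stood at 3.31, 1.96, 1.18 and 3.37 per 100 of Psmb6 in control and at 3.44, 3.70, 1.51 and 3.33 in knockout. Both pairs overlapped, with log2 differences of -0.35 and 0.33 (exact permutation test, two-sided, p = 0.429 and 0.486, adjusted p = 0.486 for both). Psmb10 stood at 4.23, 4.16, 3.30 and 4.50 per 100 of Psmb7 in control and at 6.49, 5.21, 5.21 and 6.8 in knockout. These groups did not overlap. The log2 difference was 0.55 (exact permutation test, p = 0.0286, the smallest that 4 against 4 can give, adjusted over the 3 ratios p = 0.0857), so it did not pass an adjusted p of 0.05. In all libraries the constitutive transcripts outnumbered the inducible ones.

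The libraries that were low in the inducible subunits were also low in fat cell markers. The sum of Psmb8, Psmb9 and Psmb10 was 22.6, 18, 13.5 and 23.4 CPM in control and 30, 25.2, 17.9 and 24.7 CPM in knockout. The 6 adipocyte markers, none of which passed edgeR's test or had an unadjusted p under 0.05, summed to 1459, 974, 248 and 1433 CPM in control and to 2481, 1375, 685 and 1504 CPM in knockout. Replicate 3 was lowest in each group in both sums. The 14 macrophage markers summed to 244, 112, 93.5 and 179 CPM in control and to 209, 391, 240 and 321 CPM in knockout, with knockout replicate 1 the lowest of its group although highest in the inducible subunits. T and NK cell markers were near the floor, with 2 of 14 listed genes analysed. Their sum was 0.441 to 2 CPM in control and 0.459 to 0.994 CPM in knockout. These genes, Cd3e and Cd4, had opposite signs, and both overlapped between groups. Cd3e passed as lower (log2 fold change -2.56, edgeR adjusted p = 0.005) on 2 to 25 counts a library. Its adjusted p rose to as much as 0.017 when a single library was dropped, so the call is not firm. Cd4 did not pass (log2 fold change 1.48, edgeR adjusted p = 0.046). The 6 listed B cell markers were not analysed here. The neutrophil marker S100a8 rose, and the 3 of 6 neutrophil markers analysed summed to 0.458 to 4.20 CPM in control and 17.3 to 37.8 CPM in knockout. Most of the knockout sum was S100a8 (mean 22.8 CPM). S100a9 (adjusted p = 0.31 in edgeR) and Csf3r (adjusted p = 0.074) overlapped between groups and did not pass. Of 5 satellite cell and myoblast markers 1 rose and 2 fell (20% and 40%, where 23.6% and 21.1% of all genes did). The part of these cells in the inducible subunits was not tested.

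**Figure D4:**
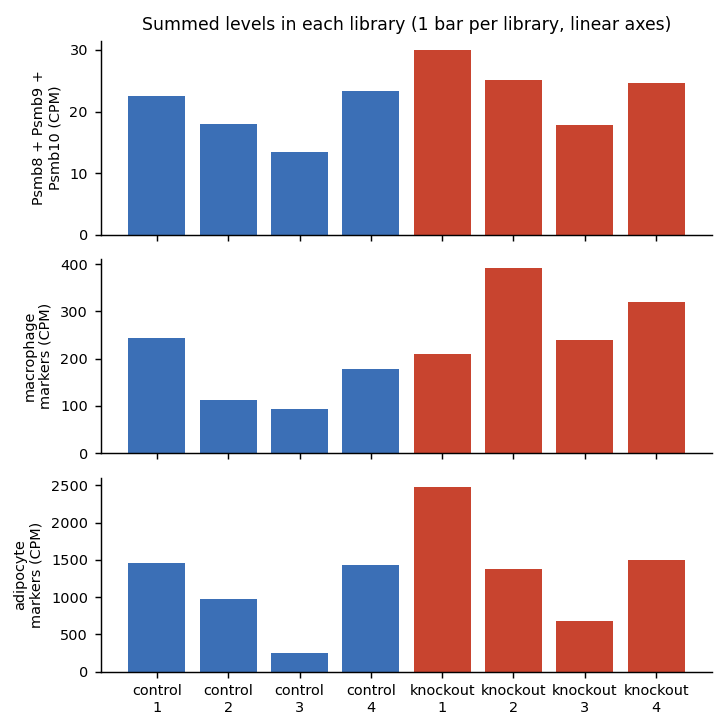
Summed level in each library, in CPM on linear axes, of the 3 inducible subunits (top), the 14 macrophage markers (middle) and the 6 adipocyte markers (bottom), control in blue and knockout in red. Replicate 3 has the lowest bar of its group in the top and bottom panels (13.5 and 17.9 CPM, and 248 and 685 CPM), while knockout replicate 1 is the highest of its group in both and the lowest for macrophage markers.

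The genes that act around the immunoproteasome were read from a list of 14 genes of antigen processing and interferon response. Of these 4 rose (28.6%, near the 23.6% of all genes) and none fell, and the median log2 fold change was 0.35. The 4 were Canx (1.30 ± 0.087, SE, adjusted p = 1.4e-06), Tapbpl (0.75 ± 0.14, SE, adjusted p = 0.0012), Pdia3 (0.56) and Calr (0.39). Canx, Pdia3 and Calr are folding factors of the endoplasmic reticulum that serve glycoproteins in general, and Tapbpl edits the peptides of MHC class I. The transporter Tap1 (0.29), the MHC class I light chain B2m (0.25), the heavy chain H2-K1 (0.52) and the interferon-induced transcription factor Irf1 (0.30) did not pass. B2m and H2-K1 were lowest in replicate 3 of each group, as were Psmb8 and Psmb9 (62.0 CPM in control and 87.7 CPM in knockout for B2m).

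Of the 6 ATPases, which form the unfolding ring of the base, 3 rose (50%, where 23.6% of all genes rose): Psmc6, Psmc2 and Psmc1. None fell (21.1% of all genes did), and the median was 0.27. Psmc6 read 107, 98.2, 109 and 99.3 CPM in control and 149, 143, 155 and 141 CPM in knockout (log2 fold change 0.50 ± 0.066, SE, adjusted p = 0.00011). Psmc5 read 148, 135, 138 and 134 CPM in control and 145, 149, 142 and 129 CPM in knockout (log2 fold change 0.03 ± 0.069, SE, adjusted p = 0.75). The groups were apart for Psmc6 and overlapped for Psmc5, whose fitted sign turned to -0.02 with RLE size factors. Psmc2 and Psmc1 had log2 fold changes of 0.38 and 0.36, and Psmc4 (0.18) and Psmc3 (0.17) did not pass.

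The 17 subunits of the regulatory particle, ATPases included, counted 7 higher and 2 lower (41.2% and 11.8%, where 23.6% and 21.1% of all genes were). Their median was 0.18. Among the 3 non-ATPase subunits of the base, Psmd4, a receptor for ubiquitin chains, rose (log2 fold change 0.51 ± 0.060, SE, adjusted p = 5.4e-05). Psmd2, a docking platform for shuttle factors, did not pass (0.21). Psmd1, the other scaffold of the base, read 257, 253, 261 and 249 CPM in control and 198, 191, 208 and 199 CPM in knockout, a log2 fold change of -0.36 ± 0.060 (SE, adjusted p = 0.00059), and it was higher with library totals alone. The groups were far apart relative to the spread within each.

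In the lid 3 of 8 subunits rose (37.5%, where 23.6% of all genes rose): Psmd11, Psmd13 and Psmd8, with log2 fold changes of 0.59, 0.52 and 0.52. Psmd6 alone fell (12.5% of the lid, where 21.1% of all genes fell). Psmd6 read 166, 140, 159 and 144 CPM in control and 121, 125, 118 and 108 CPM in knockout (log2 fold change -0.37 ± 0.079, SE, adjusted p = 0.0025), again higher with library totals alone. Its rank by length-scaled level among the 48 genes went from 8 to 20, and that of Psmd1 from 18 to 28. Psmd14, the enzyme that strips ubiquitin chains, did not pass (log2 fold change -0.02), nor did Psmd7 (-0.11), its partner in the lid, Psmd12 (0.08) or Psmd3 (0.18). Hence the lid subunits did not share 1 direction.

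The chaperones of the base, which hold the ATPases before the ring closes, are also named Psmd. Psmd10, also called gankyrin, read 12.8, 9.82, 12.3 and 9.77 CPM in control and 18, 14.2, 18.4 and 17.9 CPM in knockout, 1.54-fold higher (log2 fold change 0.62 ± 0.13, SE, adjusted p = 0.0018). Knockout replicate 2 was the lowest of its group and still above all controls. Psmd5 also rose (0.47 ± 0.084, SE, adjusted p = 0.00087). Psmd9 read lower in every knockout library (24.6 to 25.6 CPM in control against 19.3 to 24.1 in knockout), but did not pass the test (log2 fold change -0.19, adjusted p = 0.058) and was positive with library totals alone (0.47).

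The assembly factors of the core particle, taken with its inhibitor Psmf1, made up the class with the highest median, 0.52. In it 4 of 5 genes rose (80%, where 23.6% of all genes rose) and none fell (21.1% of all genes did). Psmg4, a chaperone of alpha ring assembly (chr13:34162964-34178172), read 2.99, 2.62, 1.93 and 2.39 CPM in control and 7.21, 6.78, 8.88 and 8.11 CPM in knockout. It was 3.12-fold higher (log2 fold change 1.64 ± 0.16, SE, adjusted p = 1.5e-05), the highest of the 48, from a low level. Psmg2, which works with Psmg1 in alpha ring assembly, read 22.5, 17.5, 22 and 15.8 CPM in control and 31.5, 27.7, 33.3 and 35.5 CPM in knockout (log2 fold change 0.72 ± 0.13, SE, adjusted p = 0.00075). Neither gene overlapped between groups. Psmg1 rose as well (0.52 ± 0.11, SE, adjusted p = 0.0023). Psmg3, the partner of Psmg4, read 5.82, 6.42, 5.51 and 4.47 CPM in control and 6.25, 7.56, 6.81 and 7.23 CPM in knockout, overlapped and did not pass (log2 fold change 0.33 ± 0.13, adjusted p = 0.058). Psmf1, which inhibits the core particle in the test tube, rose (0.47 ± 0.075, SE, adjusted p = 0.00042).

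The activators split. Psme4, the single-chain cap known as PA200, fell the most of the 48 genes, and Psme1 fell, while Psme2 and Psme3 rose. Psme4 (chr11:30771775-30880361) read 402, 395, 428 and 527 CPM in control and 148, 147, 170 and 141 CPM in knockout, 2.89-fold lower (log2 fold change -1.53 ± 0.11, SE, adjusted p = 2e-06). The groups lay far apart, and Psme4 was also lower with library totals alone (-0.87). By length-scaled level it went from rank 21 to rank 36, from 68.0 to 23.5 CPM per kilobase.

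Psme1 and Psme2 encode the alpha and beta chains of PA28, a ring that is itself induced by interferon. Psme1 read 36.8, 41.8, 43.4 and 37.8 CPM in control and 34.1, 32.2, 23.9 and 29.8 CPM in knockout (log2 fold change -0.41 ± 0.11, SE, adjusted p = 0.0087). Psme2 read 22.9, 21.2, 19.3 and 21.9 CPM in control and 34.4, 31.2, 27.4 and 34.5 CPM in knockout (log2 fold change 0.58 ± 0.093, SE, adjusted p = 0.00040). The groups did not overlap for either gene, and the chains of 1 ring moved in opposite directions on this scale. The Psme1 call was the least firm of the 28: it was lost with upper-quartile factors (adjusted p = 0.013) and without any of 5 single libraries (each control replicate and knockout replicate 4, adjusted p up to 0.027), and its sign turned with library totals alone. Psme3, the nuclear cap PA28 gamma, read 74.2, 67.0, 69.0 and 65.1 CPM in control and 85.6, 82.2, 89.7 and 89.7 CPM in knockout (log2 fold change 0.34 ± 0.065, SE, adjusted p = 0.0015). Psme2b, a near copy of Psme2 whose reads may be hard to assign, was at about 1 CPM in both groups and did not pass (log2 fold change -0.16).

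**Figure D5:**
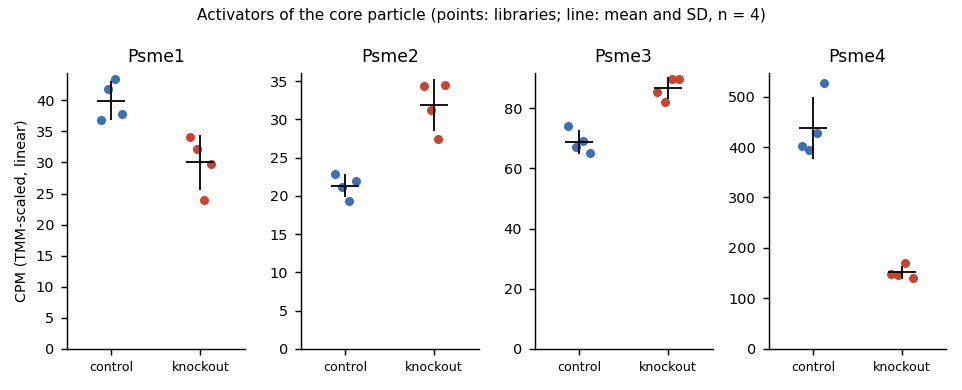
Level in CPM (TMM scale, linear axes from 0) of the activators Psme1, Psme2, Psme3 and Psme4. Points are libraries and lines are mean and SD (n = 4). Psme4 falls from 395 to 527 CPM in control to 141 to 170 CPM in knockout, Psme2 and Psme3 rise, and Psme1 falls on this scale but not with library totals alone.

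Ratios of the activators within each library are free of scaling. Counts of Psme2 per 100 counts of Psme1 were 62.2, 50.8, 44.5 and 57.8 in control and 101, 96.9, 114 and 116 in knockout. Counts of Psme3 per 100 of Psme1 were 202, 160, 159 and 172 in control and 251, 255, 374 and 301 in knockout. Counts of Psme4 per 100 of Psme1 were 1094, 945, 986 and 1393 in control and 434, 456, 710 and 473 in knockout. No ratio overlapped between the groups. The log2 differences were 1.0, 0.76 and -1.1 (exact permutation test, two-sided, p = 0.0286 each, the smallest possible, adjusted over the 3 ratios p = 0.0286). All 3 ratios share the denominator Psme1, so they are not separate results. The log2 fold change of Psme1 itself was -0.41 with TMM scaling. Without control replicate 1 or control replicate 4 the adjusted p of the Psme4 ratio was 0.0571, the log2 difference then being -1.1 or -0.99.

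Genes that work with the proteasome were read from 3 further lists. Of 12 associated factors, 3 rose and 3 fell (25% each, near the 23.6% and 21.1% of all genes, median 0.09). Zfand2a, a stress-induced binding partner, rose (log2 fold change 0.74 ± 0.11, SE, adjusted p = 0.00023), and so did the associated thioredoxin Txnl1 (0.37) and Ubfd1. AI314180, a scaffold that holds core and cap together, fell (-0.92 ± 0.083, SE, adjusted p = 9.2e-06), as did the stimulatory factor Zfand5 (-0.82) and the ubiquitin ligase Ube3c (-0.69). With library totals alone these were -0.25, -0.16 and -0.02, and only AI314180 still passed. Pomp, the chaperone of beta ring assembly, read 67.7 to 77.1 CPM in control and 66.6 to 79.5 CPM in knockout, and Adrm1, a ubiquitin receptor of the base, 60.1 to 73.0 and 71.3 to 77.1 CPM. Neither passed, and the groups overlapped for both. Without knockout replicate 4, 1 of the 12 passed as higher, Txnl1 and Ubfd1 having been lost.

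The second list, of 11 genes, covered the transcription factor NRF1 (Nfe2l1), which raises proteasome gene transcription when degradation fails, and the steps that release it. Of these 4 rose and 3 fell (36.4% and 27.3%, where 23.6% and 21.1% of all genes did, median 0.22). Nfe2l1 read 668, 755, 734 and 905 CPM in control and 1140, 952, 1361 and 1304 CPM in knockout (log2 fold change 0.64 ± 0.13, SE, adjusted p = 0.0023), with no overlap, but the call was lost without knockout replicate 3 or knockout replicate 4 (adjusted p up to 0.014). Nfe2l2 (0.85 ± 0.073, SE, adjusted p = 6.5e-06) and the small Maf partners Maff (1.27 ± 0.22, SE, adjusted p = 0.00073) and Mafk (0.56) also rose, the Mafk call being lost with RLE size factors and without any of 6 single libraries (all but control replicate 4 and knockout replicate 2, adjusted p up to 0.035). Ddi2, the protease that cleaves NRF1, read 22.1, 20.3, 23.8 and 19.2 CPM in control and 7.71, 7.69, 11.2 and 6.88 CPM in knockout (log2 fold change -1.35 ± 0.15, SE, adjusted p = 4e-05). Ngly1, which removes the sugar chains of NRF1, fell (-0.61, or 0.06 with library totals alone), as did Keap1 (-0.50, or 0.16 with library totals alone), the adaptor that holds NRF2 in check. Without knockout replicate 3 or knockout replicate 4, 2 of the 11 genes passed as higher, Nfe2l1 and Mafk having been lost.

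The third list held ubiquitin genes and shuttle factors. Of 12, 3 rose and 2 fell (25% and 16.7%, where 23.6% and 21.1% of all genes did, median -0.01). Rps27a, which encodes ubiquitin fused to a ribosomal protein, rose (log2 fold change 1.27 ± 0.10, SE, adjusted p = 4.8e-06), as did the cofactor Nploc4 (0.46). The shuttle factor Ubqln4 fell (-0.39, or 0.28 with library totals alone).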

How the data were processed

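Per the labels, polyadenylated RNA of quadriceps femoris from 8 mice was made into NEBNext Ultra II Directional libraries. The authors trimmed reads with cutadapt, aligned them to GRCm38 with STAR 2.5.4b, counted read pairs on exons with Rsubread, left out duplicate, chimeric and multimapping reads and dropped genes with fewer than 50 reads. The lowest total in the table was 51. The deposited table holds raw gene counts, which were used for all tests, FPKM values that the authors computed from them, which served only to check the count columns, and the exon width used for levels per kilobase. Its columns of the authors' DESeq2 1.32.0 comparison (fold changes, errors and p-values) were not used. Annotation release and strand setting are not given in the sources used here.

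All 14012 genes were fitted with edgeR 4.0.16 (R 4.3.3, TMM factors, quasi-likelihood test, group only, Benjamini-Hochberg adjustment over all genes, threshold 0.01). SE is the absolute log2 fold change over the square root of F. CPM refer to the TMM-scaled library size. On simulated data of 13273 genes edgeR recovered 71% of genes changed by a log2 fold change of 1 and 99% of those changed by 2. In it 200 genes were changed, as many up as down, with no shift in scaling factors between groups. It therefore does not cover that shift, nor the smaller changes of most proteasome genes. Ratios were tested by exact permutation over 70 assignments, with adjustment over 3 ratios and a threshold of 0.05. Overlaps were read from GENCODE M21, and promoter windows from RefSeq. Alternatives were RLE, upper-quartile and total-count scaling, DESeq2 1.42.0, a low-count filter, robust dispersion, a threshold of 0.05, the replicate block and leaving out each library.

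Members, classes and lists were chosen with earlier results of these data known. Named with all values are the active beta subunits and their inducible partners, Psme1 to Psme4, the 4 highest and 4 lowest changes and the extremes of each class, and from each list the 2 highest and 2 lowest among those past the threshold. Some genes that this rule or the lists name are counted in their lists but not reported here. Nfe2l1, Pdia3, Calr, Mafk, Keap1, Nploc4, Ubfd1, Ube3c and the list genes that did not pass, and the other proteasome genes given with a test, were named after their values were seen. Of the listed genes Paaf1 and Ddi1 were not analysed here, and Sem1, Ecpas and Ufd1 were read as Shfm1, AI314180 and Ufd1l.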

Additional observations from a re-analysis of the deposited data

Results flagged for a closer look

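Of 108 groups of 4 values examined, 3 held a library that lay far from the other three, where chance gives about 1 in 20. The Psmd10 level in knockout replicate 2 was 14.2 CPM, below 17.9 to 18.4 CPM in the other knockout libraries. The Psmd13 level in control replicate 1 was 84.3 CPM, above 76.6 to 77.4 CPM in the other controls. The log2 ratio of Psmb9 to Psmb6 in knockout replicate 3 was -6.05, below -4.91 to -4.76 in the others.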

How the results depend on the processing

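Scaling mattered most. With library totals alone 43 proteasome genes were higher and 1 lower (23 and 5 with TMM), and the median was 1.0. On that scale 60.6% of all genes were higher and 6.23% lower. Higher counts became 7 for the alpha ring, 7 for the constitutive beta ring, 1 for the inducible subunits, 6 for the ATPases, 14 for the Psmd genes, 9 for the associated factors, 8 for the NRF1 list, 11 for ubiquitin and shuttle factors and 12 for antigen processing. Lower counts became 0 for the beta ring, the Psmd genes and the ubiquitin list, and 1 for the activators, the associated factors and the NRF1 list. The sign turned for Psmb7 (0.37), Psmd1 (0.31), Psmd6 (0.30), Psmd7 (0.55), Psmd9 (0.47), Psmd14 (0.65), Psme1 (0.26), Psme2b (0.51), Ngly1 (0.06), Keap1 (0.16) and Ubqln4 (0.28). The median of the proteasome genes was 0.29 with RLE factors, 0.36 with upper-quartile factors, 0.29 with DESeq2 and 0.28 to 0.36 when 1 library was left out.

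Signs near 0 turned for Psma3 (-0.01 with RLE and DESeq2, -0.00 without knockout replicate 3), Psmc5 (-0.02 with RLE and DESeq2, -0.01 without knockout replicate 2 or 3) and Psmd14 (0.01 with upper-quartile factors, -0.06 to 0.00 when 1 library was left out, and 0.00 without control replicate 1). Leaving out 1 library gave 3 to 5 lower proteasome genes, 1 to 2 lower activators, 0 to 1 lower beta subunits, 1 to 3 higher associated factors and 2 to 5 higher genes of the NRF1 list. The count of 3 lower proteasome genes came without control replicate 1 or control replicate 3, where Psmb7 and Psme1 were lost. Of the 28 calls 24 were kept in all of these fits, and the other four were Psma2 (lost without knockout replicate 4, adjusted p = 0.012), Psmb4, Psmb7 and Psme1. DESeq2 made 28 of the same calls.

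The labels give the replicate numbers no shared origin, and they were not taken to pair the samples: the deviations of same-numbered samples correlated at 0.118, 0.003, 0.42 and 0.138, and 6 of 8 samples correlated best with their own number. With the replicate block 23 genes were higher and 4 lower, 27 of the 28 calls were kept, and 1 activator was lower, Psme1 having been lost, as with upper-quartile factors. In the antigen processing list 6 genes were higher with the block, against 4 without it, the added ones being Tap2 (adjusted p = 0.0072) and H2-K1 (adjusted p = 0.0041). Psmb8, Psmb9 and Psmb10 stayed short of the threshold (adjusted p = 0.074, 0.092 and 0.056). In the block the activator ratios kept their log2 differences (-1.10, 0.76 and 1.0), but 4 pairs allow no p below 0.125, the adjusted p reached. With 1 library left out the Psme4 to Psme1 log2 difference was -1.27 to -0.99, and its adjusted p was 0.0571 without control replicate 1 or control replicate 4.

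Psmb9 rests on 20 to 111 counts a library and Psmb8 on 52 to 301, with standard errors of 0.34 and 0.31 on the log2 scale against 0.056 to 0.083 in the alpha ring, so a change of the size seen in most subunits was not detectable in them.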
